A study of Mus musculus with 6 samples.

Results

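Astrocyte genes were followed here in brain tissue of mice lacking Gb5, the G protein beta subunit encoded by Gnb5. The set held 31 genes that are widely used as astrocyte markers, and every probe set annotated to exactly 1 of these symbols was taken, which gave 68 of the 45037 probe sets tested and 31 of 18193 genes. Gb5ko mice, labelled Gb5-deficient, gave 3 arrays (replicates 1, 2 and 3), and Gb5wt mice, labelled wild type, gave 3 arrays (replicates 4, 5 and 6). All 6 samples were total RNA from the non-cerebellar portion of the brain, hybridised to Affymetrix expression arrays at 1 array per sample. Both genotypes came from littermates matched for age and sex, per the labels. The labels used here do not state ages, the sex of each animal, strain or how the allele was deleted. Because the labels do not name the animal behind each array, p-values measure the spread between these arrays.

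Astrocytes are the glial cells that take up transmitter glutamate, buffer potassium and water around neurons and capillaries, and supply neurons with metabolites and lipids. Glutamate enters through 2 high-affinity transporters, GLT-1 (Slc1a2) and GLAST (Slc1a3), and glutamine synthetase (Glul) turns it into glutamine, which neurons use again. Aquaporin-4 (Aqp4) sits in the endfeet that cover blood vessels, and glial fibrillary acidic protein (Gfap) and vimentin (Vim) form the intermediate filaments that increase when astrocytes become reactive. The deposited values are RMA log2 expression values, so a difference of 1 is a doubling, and the level of 1 probe set cannot be set against that of another.

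None of the 68 probe sets of these genes passed the limma threshold, an adjusted p under 0.05 over all 45037 probe sets, where 0.0266% of all probe sets did. Differences between the groups were small in both directions. By the brightest probe set of each gene they ran from -0.28 for Slc1a3 to 0.50 for Agt, on the log2 scale, as Gb5ko minus Gb5wt. The largest over all 68 was -0.67, a 1.59-fold difference, for a second Slc1a3 probe set. By the brightest probe set 0 of 31 genes passed, beside 0.022% of all genes. A difference over 1.5-fold was seen in 1 of 68 probe sets, beside 1.19% of all probe sets, and in 0 of 31 genes, beside 0.813% of all genes.

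Counts without adjustment were few in both directions. At a limma p under 0.05 before adjustment, 2 of 31 genes were higher in Gb5ko (Aldh1l1 and Agt), 6.45% beside 9.89% of all genes. On that basis 2 of 31 were lower (Slc1a3 and Fgfr3), 6.45% beside 5.68% of all genes. Over the 68 probe sets 3 were higher, beside 8.09% of all probe sets, and 7 were lower, beside 6.33%. Every Gb5ko array lay above every Gb5wt array for Agt and Sox9, 2 of 31 genes beside 16.1% of all genes. Every Gb5ko array lay below every Gb5wt array for Slc1a3, Glul, Aqp4, Atp1b2 and Fgfr3, 5 of 31 genes beside 9.01% of all genes. Over probe sets these counts were 6 above and 9 below, beside 12.5% and 8.95% of all probe sets. The median difference was -0.02 over the 31 genes and 0.05 over all genes. By the brightest probe set the standard errors had a median of 0.122. The 95% intervals of 25 of the 31 genes then lay wholly within a 1.5-fold change in either direction. For the other 6 genes (Slc25a18, Aldh1l1, Pla2g7, Apoe, Agt and Id3) the interval reached past that size. Dimmer probe sets of some of the 25 genes reached past it too. Examples are 1443749_x_at of Slc1a3 (95% interval -1.01 to -0.34), 1439940_at of Slc1a2 (-0.89 to -0.08) and 1440142_s_at of Gfap (-0.42 to 0.70).

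**Figure D1:**
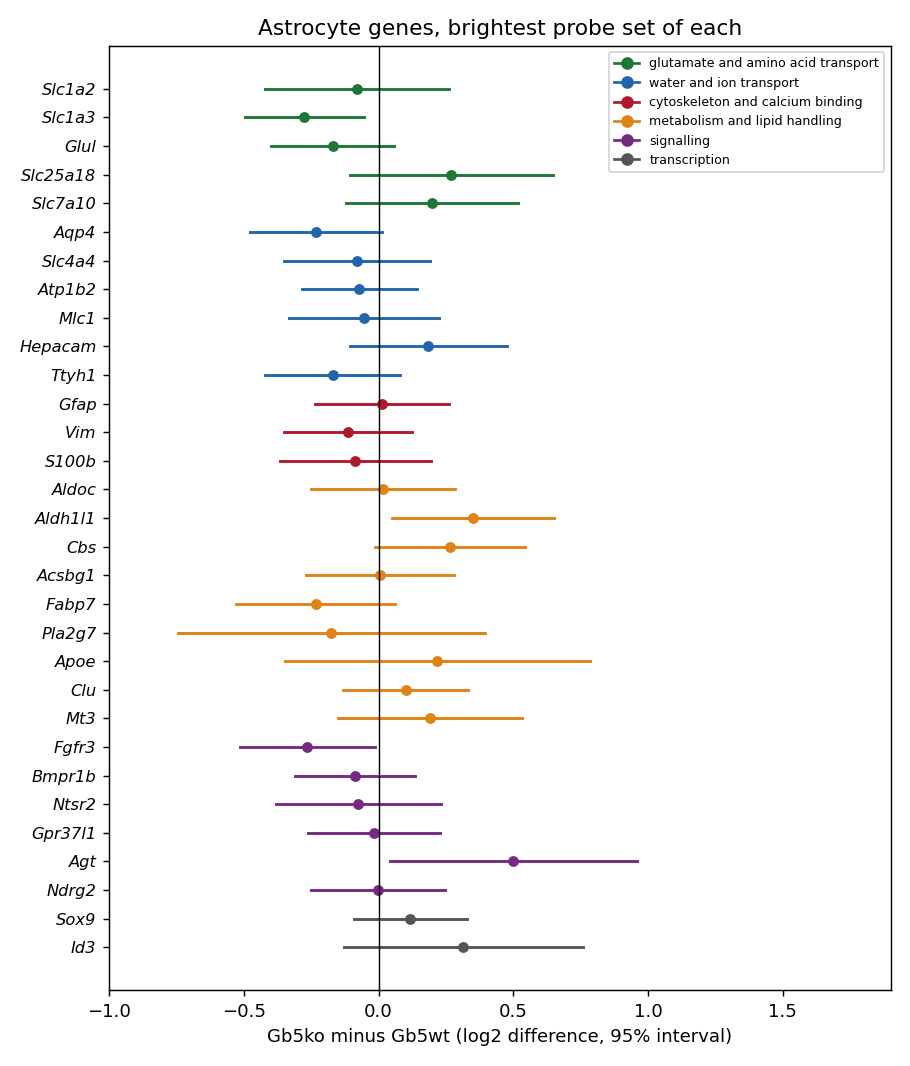
Differences of the 31 astrocyte genes (rows, coloured by function) between Gb5ko and Gb5wt, as log2 differences with 95% intervals from limma, 1 probe set, the brightest, per gene. Points lie between -0.28 and 0.50, and the intervals of Slc1a3, Aldh1l1, Fgfr3 and Agt do not cross 0.

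Of the members with an unadjusted p under 0.05, Agt and Fgfr3 had means of 7.39 and 9.24 by the brightest probe set. Promoters of a lower and a higher gene are shown, those of Slc1a3 and Aldh1l1, the only such members with a mean above 10. Both are the 250 bases before the annotated start in RefSeq on GRCm38.p6, read 5′ to 3′ on the gene's strand, and capitals mark CCAAT on either strand, a common promoter motif chosen after the data were seen.
Slc1a3 (chr15:8710808-8711057, minus strand): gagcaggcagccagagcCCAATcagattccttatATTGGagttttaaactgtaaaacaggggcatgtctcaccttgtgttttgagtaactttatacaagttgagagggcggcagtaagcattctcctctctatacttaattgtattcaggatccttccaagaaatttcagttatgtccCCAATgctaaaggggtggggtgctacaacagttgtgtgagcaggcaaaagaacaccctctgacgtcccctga
Aldh1l1 (chr6:90550543-90550792, plus strand): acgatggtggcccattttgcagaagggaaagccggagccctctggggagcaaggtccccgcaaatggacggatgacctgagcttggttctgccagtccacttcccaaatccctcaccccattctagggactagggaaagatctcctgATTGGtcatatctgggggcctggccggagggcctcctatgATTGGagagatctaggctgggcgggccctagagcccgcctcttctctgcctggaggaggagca
The Slc1a3 window held 3 matches to CCAAT and the Aldh1l1 window 2. Windows not shown held fewer, 0 for Agt and 1 and 0 for Fgfr3. RefSeq windows were found for 27 of the 31 genes, 36 windows in all. Of these 36, 13 held CCAAT, 36.1% beside 33.8% of all 32851 windows. The motif ACAATG, bound by SOX factors, was in 2 windows, those of Apoe and Bmpr1b, 5.56% beside 10.7% of all. The AP-1 motif TGANTCA was in 0 windows beside 6.75% of all. Motifs were searched on both strands.

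The 6 arrays were checked before the members were compared. Gnb5 read 3.67, 3.00 and 3.56 in Gb5ko arrays, against 8.79, 8.98 and 9.30 in Gb5wt arrays, a difference of -5.62 (limma adjusted p = 4.48e-06), so every array labelled Gb5ko was low. Along the first principal component of all probe sets, Gb5ko replicate 1 lay at -49.8 and the other Gb5ko arrays at -5.82 and -8.47, while Gb5wt replicate 4 lay at 32.3 and the other Gb5wt arrays at 15.4 and 16.4. Gb5ko replicate 1 and Gb5wt replicate 4 thus stood at opposite ends, and each brightest-probe-set difference that moved by over 1.5 times or turned in sign without both is given that way too. These 2 arrays also differed in sex-linked transcripts. Xist, expressed from the inactive X chromosome, read 10.7 in Gb5ko replicate 1 and 4.96 in Gb5wt replicate 4, the lowest of the 6 arrays. The Y-linked Eif2s3y read 2.96 in Gb5ko replicate 1 and 11.3 in Gb5wt replicate 4. Gb5ko replicate 2 read high for both Xist (8.31) and Eif2s3y (11.3), and no label says how many animals an array represents, so matching for sex could not be seen array by array. Pituitary markers, 7 genes, averaged 7.54 in Gb5ko replicate 3, with the other Gb5ko arrays at 5.67 and 5.09 and the Gb5wt arrays at 4.92 to 5.71. Growth hormone (Gh) read 10.6 in Gb5ko replicate 3 and at most 6.21 in the other arrays. Without Gb5ko replicate 3 0 members passed the threshold, and before adjustment 2 member genes were higher and 2 lower, counts as with all arrays. The actin control probe sets, whose 3′ minus 5′ signal grows as RNA degrades, gave log2 values of 3.31, 3.22 and 3.28 in Gb5ko and 3.40, 3.04 and 3.15 in Gb5wt. The part of RNA quality, sex and dissection in the results was not tested. In bulk tissue, fewer astrocytes and less RNA per astrocyte cannot be told apart.

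Glutamate transport gave the lowest values of the set, at the transporter GLAST. The brightest Slc1a3 probe set (1452031_at) read 12.38, 12.48 and 12.54 in Gb5ko arrays, against 12.70, 12.78 and 12.75 in Gb5wt arrays. Every Gb5ko array lay below every Gb5wt array, and the difference was -0.28 ± 0.098 (SE; limma adjusted p = 0.275). A second probe set (1443749_x_at) read 8.06, 8.61 and 8.50 in Gb5ko and 8.98, 9.06 and 9.14 in Gb5wt, a difference of -0.67 ± 0.148 (limma adjusted p = 0.193). The next in brightness (1426340_at) read 8.00, 8.61 and 8.34 in Gb5ko and 8.88, 8.87 and 8.86 in Gb5wt, a difference of -0.55 ± 0.149 (limma adjusted p = 0.222). In these 3 probe sets Gb5ko replicate 1 was the lowest array and the groups did not overlap. The remaining 3 did not share this, and their groups overlapped. The probe set 1440491_at read 6.99, 7.13 and 7.63 in Gb5ko and 6.92, 7.17 and 6.90 in Gb5wt, a difference of 0.25 with Gb5ko replicate 3 above the rest. The probe set 1426341_at differed by -0.03, with a range of 6.27 to 6.42 in Gb5ko and 6.20 to 6.45 in Gb5wt. The dimmest, 1439072_at, differed by 0.06, with a range of 5.33 to 5.81 in Gb5ko and 5.21 to 5.64 in Gb5wt. Without Gb5ko replicate 1 and Gb5wt replicate 4 the first 3 probe sets still differed by -0.25, -0.55 and -0.39, and no probe set of Slc1a3 passed the threshold in any alternative fit.

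**Figure D2:**
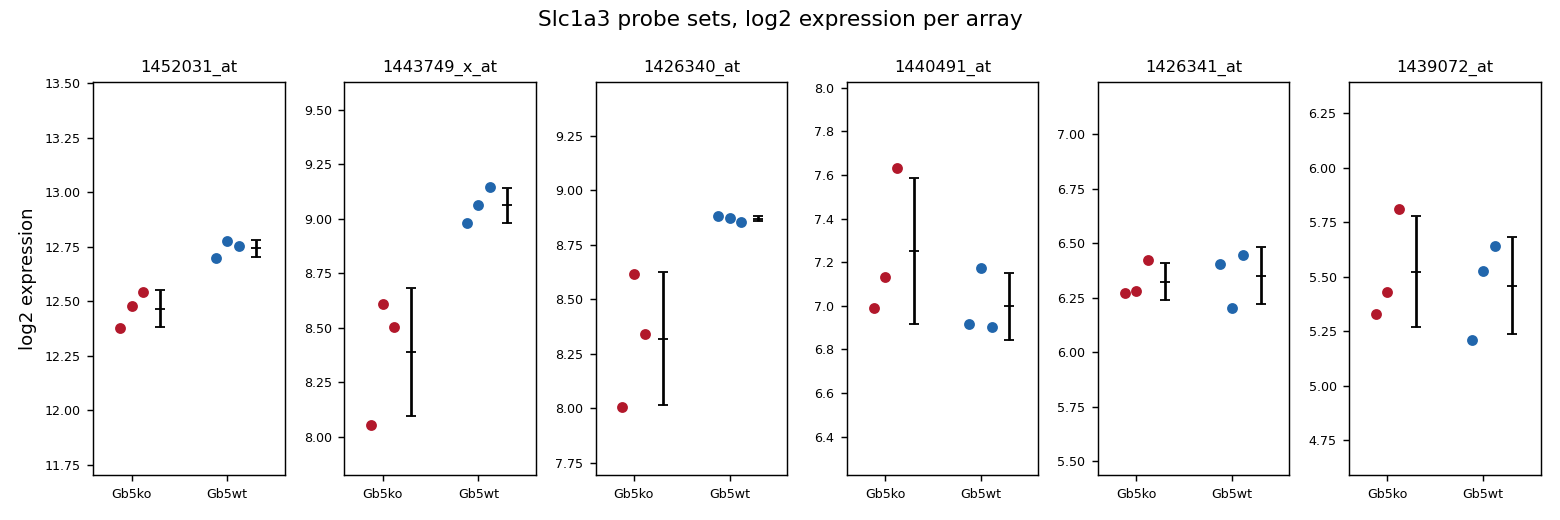
Log2 expression of the 6 Slc1a3 probe sets in each array (points; 3 Gb5ko in red, 3 Gb5wt in blue; bars, mean ± SD), brightest on the left. In the first 3 panels each Gb5ko array lies below each Gb5wt array, and in the last 3 the groups overlap.

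GLT-1, the main glutamate transporter of the forebrain, was read by 5 Slc1a2 probe sets. The brightest (1438194_at) read 11.69, 11.87 and 12.14 in Gb5ko and 11.74, 12.04 and 12.16 in Gb5wt, overlapping groups with a difference of -0.08 (95% interval -0.42 to 0.26). The second (1439940_at) read 10.97, 11.59 and 11.62 in Gb5ko and 11.71, 11.96 and 11.97 in Gb5wt, and here the groups did not overlap, at -0.49 ± 0.178 (limma adjusted p = 0.281). Gb5ko replicate 1 was again the lowest array. The probe set next in brightness read 8.33, 8.15 and 8.51 in Gb5ko and 8.03, 8.26 and 8.38 in Gb5wt, which overlap, at 0.11. Both others were dim, with means of 5.28 and 3.80, and differed by 0.12 and 0.03. A further probe set that lists both Slc1a2 and Gm13872 was left out because it names several genes.

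Glutamine synthetase had its groups apart in the same direction as the brightest GLAST probe set, at a smaller size. Its brightest Glul probe set read 12.78, 13.00 and 12.92 in Gb5ko and 13.09, 13.07 and 13.05 in Gb5wt, which do not overlap, and differed by -0.17 ± 0.101 (limma adjusted p = 0.459). Without Gb5ko replicate 1 and Gb5wt replicate 4 it differed by -0.10. The dimmer Glul probe set read 8.98, 8.81 and 8.90 in Gb5ko and 8.53, 8.90 and 9.06 in Gb5wt, at 0.07. Its groups overlapped, and both its lowest and its highest array were Gb5wt. The mitochondrial glutamate carrier Slc25a18 and the neutral amino acid transporter Slc7a10 had positive differences, 0.27 and 0.20. Slc25a18 read 10.15, 9.86 and 9.96 in Gb5ko and 9.34, 9.83 and 9.98 in Gb5wt, so a single low Gb5wt array set its difference. It was 0.08 without Gb5wt replicate 4 and 0.00 without that array and Gb5ko replicate 1. Slc7a10 gave -0.02 without these 2 arrays.

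Water and ion transport genes had negative differences in 5 of 6 genes by the brightest probe set, beside 40.1% negative among all genes, and 0 of the 6 had an unadjusted p under 0.05. The brightest Aqp4 probe set, for the water channel, read 11.50, 11.75 and 11.70 in Gb5ko and 11.82, 11.88 and 11.96 in Gb5wt. The groups did not overlap, and the difference was -0.23 ± 0.108 (limma adjusted p = 0.363). A dim Aqp4 probe set (1447745_at) read 4.34, 4.14 and 4.38 in Gb5ko and 4.81, 4.58 and 4.90 in Gb5wt, at -0.48 ± 0.121 (limma adjusted p = 0.212), and here too the groups did not overlap. The remaining Aqp4 probe set read 5.87, 5.85 and 5.85 in Gb5ko and 5.55, 5.69 and 6.08 in Gb5wt, at 0.08, with the Gb5ko arrays inside the Gb5wt range.

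Slc4a4, the sodium bicarbonate cotransporter, was the gene with most probe sets on 1 side: all 5 had negative differences, from -0.43 to -0.08. Its brightest probe set read 11.36, 11.38 and 11.30 in Gb5ko and 11.59, 11.21 and 11.49 in Gb5wt, which overlap, and the -0.08 became -0.01 without Gb5ko replicate 1 and Gb5wt replicate 4 and 0.00 without Gb5wt replicate 4 alone. The second read 8.39, 8.66 and 8.81 in Gb5ko and 8.68, 8.99 and 9.04 in Gb5wt, a difference of -0.29 (limma adjusted p = 0.389) in which Gb5ko replicate 3 overlapped with Gb5wt replicate 4. A dim one, 1421225_a_at, with a mean of 4.45, gave the -0.43 (limma adjusted p = 0.27). Atp1b2, the glial beta subunit of the sodium-potassium pump, read 11.26, 11.25 and 11.24 in Gb5ko and 11.31, 11.28 and 11.39 in Gb5wt. These groups did not overlap, yet the difference was -0.07 (95% interval -0.29 to 0.14). The second Atp1b2 probe set read 8.18, 7.84 and 7.65 in Gb5ko and 7.54, 7.78 and 8.31 in Gb5wt, overlapping, at 0.01.

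MLC1 and its partner hepaCAM form a membrane complex that anchors chloride channels at astrocyte junctions. Mlc1 read 10.92, 10.66 and 10.70 in Gb5ko and 10.70, 10.74 and 11.00 in Gb5wt, overlapping, at -0.06 over all arrays and -0.19 without Gb5ko replicate 1 and Gb5wt replicate 4. Hepacam had positive differences in both probe sets, 0.18 in the brightest and 0.31 ± 0.117 in the dimmer (limma adjusted p = 0.288). The dimmer read 6.51, 6.22 and 6.51 in Gb5ko and 6.16, 5.99 and 6.15 in Gb5wt, which do not overlap. Hepacam lies on chromosome 9, as does the targeted gene, and so does Acsbg1, which differed by 0.01. Ttyh1, of a family of chloride channel-like proteins, disagreed among its 4 probe sets. The brightest read 12.33, 12.57 and 12.49 in Gb5ko and 12.76, 12.57 and 12.57 in Gb5wt, at -0.17, with its lowest array in Gb5ko replicate 1 and its highest in Gb5wt replicate 4. Without these 2 arrays it differed by -0.04. The other 3 had positive differences of 0.10, 0.31 and 0.19. The 0.31 (limma adjusted p = 0.35) came from 1426617_a_at, which read 9.83, 9.43 and 9.42 in Gb5ko and 9.10, 9.27 and 9.37 in Gb5wt, without overlap. Gb5ko replicate 1 was thus the lowest array in the brightest Ttyh1 probe set and the highest in this one.

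Cytoskeletal and calcium-binding markers were close between the groups. The brightest Gfap probe set read 9.59, 9.72 and 9.69 in Gb5ko and 9.67, 9.50 and 9.79 in Gb5wt, a difference of 0.01 (95% interval -0.24 to 0.26), and 0.06 without Gb5ko replicate 1 and Gb5wt replicate 4. The second read 8.95, 9.69 and 9.83 in Gb5ko and 8.93, 9.60 and 9.53 in Gb5wt, with Gb5ko replicate 1 and Gb5wt replicate 4 low, and differed by 0.14 (95% interval -0.42 to 0.70). The dimmest differed by 0.12 (95% interval -0.35 to 0.59). Vim read 11.74, 11.83 and 11.71 in Gb5ko and 11.84, 12.01 and 11.77 in Gb5wt, a difference of -0.11 (95% interval -0.35 to 0.13). The other Vim probe sets differed by -0.09 and 0.03. Overlap between the groups was seen in all 8 probe sets of these 3 genes. S100b, a calcium-binding protein, read 9.99, 9.95 and 10.28 in Gb5ko and 10.05, 10.13 and 10.30 in Gb5wt, at -0.09, and its other probe set differed by -0.17.

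Metabolic and lipid-handling genes had positive differences in 7 of 9 genes, beside 59.9% positive among all genes, and 0 of their 15 probe sets passed. Aldh1l1, the folate enzyme often used as a pan-astrocyte marker, read 10.44, 10.07 and 10.37 in Gb5ko and 9.87, 9.84 and 10.12 in Gb5wt. Overlap lay in Gb5ko replicate 2, below Gb5wt replicate 6, and the difference was 0.35 ± 0.133 (limma adjusted p = 0.292). Without Gb5ko replicate 1 and Gb5wt replicate 4 it was 0.24. Its other probe set, with a mean of 3.69, differed by 0.06. Cbs, which makes cystathionine from homocysteine, differed by 0.27 and 0.21 in its 2 probe sets, and by 0.14 in the brighter without those 2 arrays. The brighter Cbs probe set read 9.62, 9.33 and 9.45 in Gb5ko and 9.10, 9.12 and 9.39 in Gb5wt, overlapping in 1 array of each group.

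Aldolase C, the brain isoform of the glycolytic enzyme, read 12.38, 12.65 and 12.56 in Gb5ko and 12.36, 12.55 and 12.63 in Gb5wt. The difference of this brightest Aldoc probe set was 0.02 (95% interval -0.25 to 0.28), and the other differed by 0.18. Clusterin, a secreted chaperone and lipoprotein, had positive differences in all 4 Clu probe sets, from 0.08 to 0.15. The brightest Clu probe set read 13.29, 13.35 and 13.45 in Gb5ko and 13.18, 13.25 and 13.36 in Gb5wt, which overlap. In the second the groups did not overlap, at 13.07, 13.13 and 13.15 in Gb5ko and 12.96, 12.96 and 12.96 in Gb5wt, a difference of 0.15 (limma adjusted p = 0.472).

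Apolipoprotein E, the main lipid carrier released by astrocytes, varied most through 1 array. Apoe read 10.10, 9.22 and 8.95 in Gb5ko and 9.21, 9.13 and 9.27 in Gb5wt, with both the highest and the lowest array in the Gb5ko group. Its difference was 0.22 ± 0.251 over all arrays, -0.12 without Gb5ko replicate 1, also -0.12 without that array and Gb5wt replicate 4, and 0.46 without Gb5ko replicate 3. The phospholipase Pla2g7 varied as widely, from 8.93 to 9.71 in Gb5ko and from 9.11 to 9.99 in Gb5wt, and differed by -0.18. Gb5ko replicate 3 and Gb5wt replicate 6 were its low arrays.

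Fabp7, the fatty acid binding protein of radial glia and astrocytes, read 10.99, 11.11 and 10.70 in Gb5ko and 11.29, 11.15 and 11.06 in Gb5wt. It differed by -0.23 (limma adjusted p = 0.437), with 1 overlapping array in each group. The acyl-CoA synthetase gene Acsbg1 read 9.60, 9.64 and 9.82 in Gb5ko and 9.48, 9.76 and 9.80 in Gb5wt, overlapping, at 0.01 over all arrays and -0.05 without Gb5ko replicate 1 and Gb5wt replicate 4. The metallothionein Mt3 read 6.36, 5.74 and 6.06 in Gb5ko and 5.81, 5.84 and 5.93 in Gb5wt, at 0.19, and Gb5ko replicate 1 was its highest array and Gb5ko replicate 2 its lowest. The Mt3 probe set was the dimmest of the brightest ones, with a mean of 5.96, and gave 0.01 without Gb5ko replicate 1 and Gb5wt replicate 4.

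**Figure D3:**
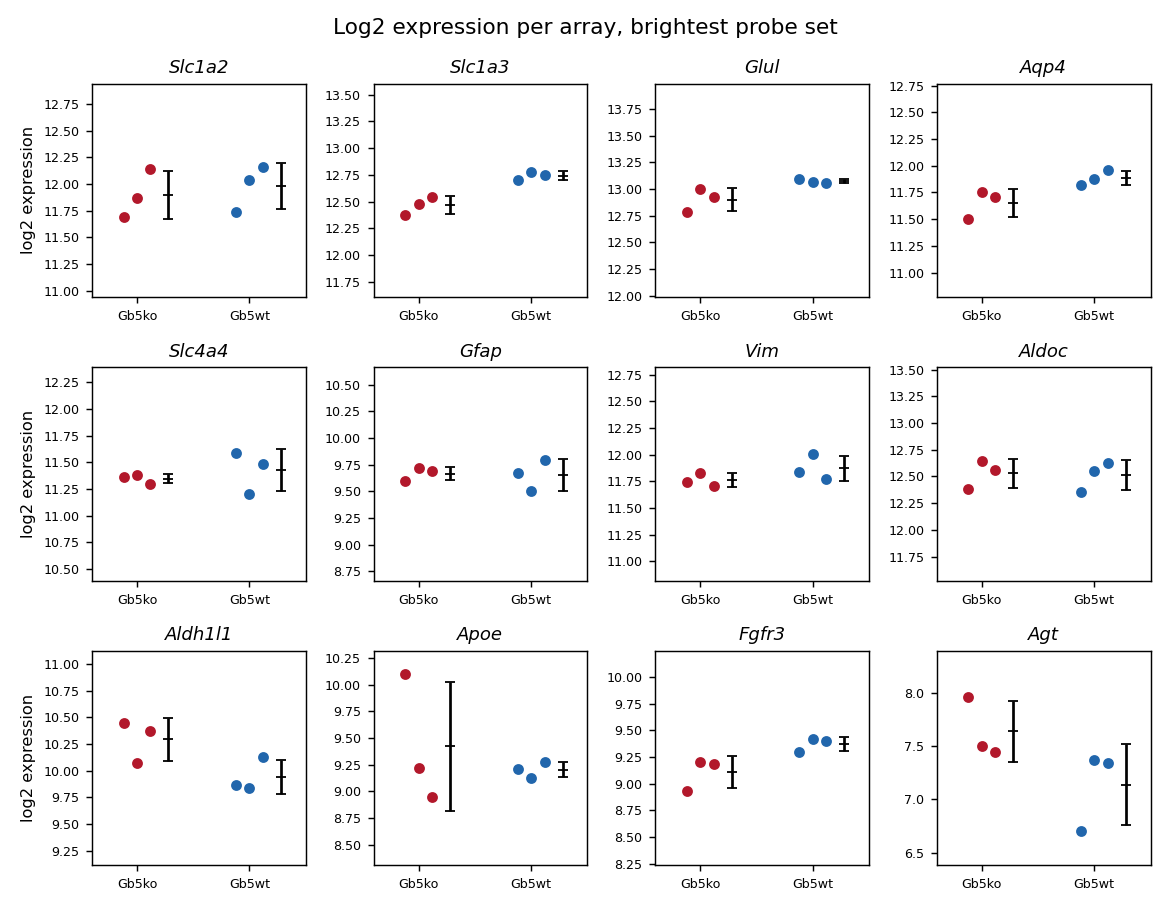
Log2 expression of 12 astrocyte genes in each array by the brightest probe set (points; 3 Gb5ko in red, 3 Gb5wt in blue; bars, mean ± SD), each panel spanning 2 log2 units. Slc1a3, Glul, Aqp4 and Fgfr3 show every Gb5ko array below every Gb5wt array by small amounts, Agt shows the reverse, and the widest spread is that of Apoe in Gb5ko.

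Signalling genes included 1 of the higher and 1 of the lower members by unadjusted p. Agt, the angiotensin precursor that astrocytes make in the brain, read 7.96, 7.50 and 7.45 in Gb5ko and 6.70, 7.36 and 7.34 in Gb5wt. The groups did not overlap, and the difference was 0.50 ± 0.203, 1.41-fold (limma adjusted p = 0.316). Its size rested on 2 arrays, since without Gb5ko replicate 1 and Gb5wt replicate 4 it was 0.12. Fgfr3, a growth factor receptor of astrocytes and their precursors, read 8.94, 9.20 and 9.19 in Gb5ko and 9.30, 9.42 and 9.40 in Gb5wt. These did not overlap, at -0.26 ± 0.111 (limma adjusted p = 0.326) and -0.22 without those 2 arrays, while a dim second Fgfr3 probe set differed by 0.13. Intervals of the other 4 signalling genes all included 0. The BMP receptor Bmpr1b ranged from 7.99 to 8.05 in Gb5ko and from 8.03 to 8.21 in Gb5wt, at -0.09. The neurotensin receptor Ntsr2 ranged from 11.03 to 11.33 in Gb5ko and from 11.03 to 11.44 in Gb5wt, at -0.07. The receptor Gpr37l1 differed by -0.02 and the N-myc downstream regulated gene Ndrg2 by 0.00. Without Gb5ko replicate 1 and Gb5wt replicate 4 the differences were -0.15 for Ntsr2, -0.04 for Gpr37l1 and -0.06 for Ndrg2. Dim probe sets of Bmpr1b, with means under 5, differed by -0.07 and 0.29.

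Transcription factors gave positive differences in both genes. Sox9 drives the glial fate during development, and its brightest probe set read 7.34, 7.38 and 7.38 in Gb5ko and 7.23, 7.23 and 7.29 in Gb5wt. The groups did not overlap, and the difference was 0.12 ± 0.0928 (limma adjusted p = 0.581). Both other Sox9 probe sets had means under 4 and differed by -0.08 and 0.16. Id3, an inhibitor of helix-loop-helix factors, read 8.77, 8.53 and 8.42 in Gb5ko and 7.85, 8.68 and 8.24 in Gb5wt, overlapping groups that differed by 0.31 over all arrays and by 0.01 without Gb5ko replicate 1 and Gb5wt replicate 4.

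Probe sets of 1 gene often disagreed. Of the 31 genes, 18 had from 2 to 6 probe sets, and in 10 of the 18 the differences had both signs. With probe sets of a mean under 6 set aside, 13 genes had at least 2, of which 7 were of 1 sign (Slc4a4, Hepacam, Gfap, S100b, Aldoc, Cbs and Clu) and 6 were not (Slc1a2, Slc1a3, Glul, Atp1b2, Ttyh1 and Vim). The differences of a gene were closest for Cbs, 0.05 apart, and farthest for Slc1a3, 0.93 apart. Where each probe set lies in its transcript was not analysed here. Names ending in _s_at or _x_at mark probe sets that may also bind transcripts of other genes. They include the brightest ones of Gfap, Vim, Cbs and Clu.

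**Figure D4:**
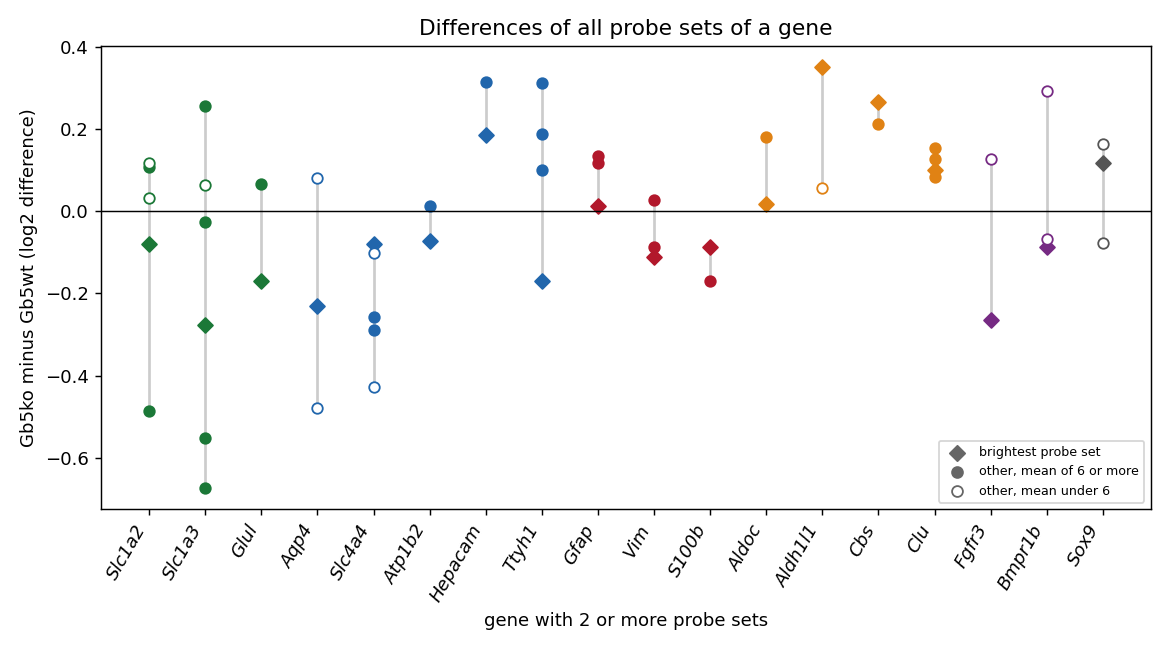
Log2 differences, Gb5ko minus Gb5wt, of every probe set of the 18 astrocyte genes that have 2 or more (diamonds, brightest; filled circles, other with a mean of 6 or more; open circles, other with a mean under 6). Slc1a3 spans from -0.67 to 0.25, and all 4 Clu probe sets lie between 0.08 and 0.15.

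Over the 6 arrays the members did not move as 1 block. Of the 465 pairs of member genes, 28 had a Pearson correlation above 0.8 and 16 one below -0.8, shares of 6.02% and 3.44%. Among all pairs of the 18193 genes these shares were 5.44% and 4.65%. The median correlation was 0.11 for member pairs and 0.03 for all pairs, and these are descriptions over 6 arrays that share 2 genotypes. Gb5ko replicate 1 was the lowest of the 6 arrays for 7 genes (Slc1a2, Slc1a3, Glul, Aqp4, Ttyh1, Fgfr3 and Bmpr1b) and the highest for 9 (Slc25a18, Slc7a10, Hepacam, Aldh1l1, Cbs, Apoe, Mt3, Agt and Id3). These shares, 22.6% and 29.0% of members, stand beside 20.2% and 35.0% of all genes. For 5 of these 9, namely Slc25a18, Slc7a10, Cbs, Agt and Id3, Gb5wt replicate 4 was the lowest array. That share, 16.1% of members, compares with 14.0% of all genes. Gb5wt replicate 6 was the highest array for 9 members, 29.0% against 9.02% of all genes.

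**Figure D5:**
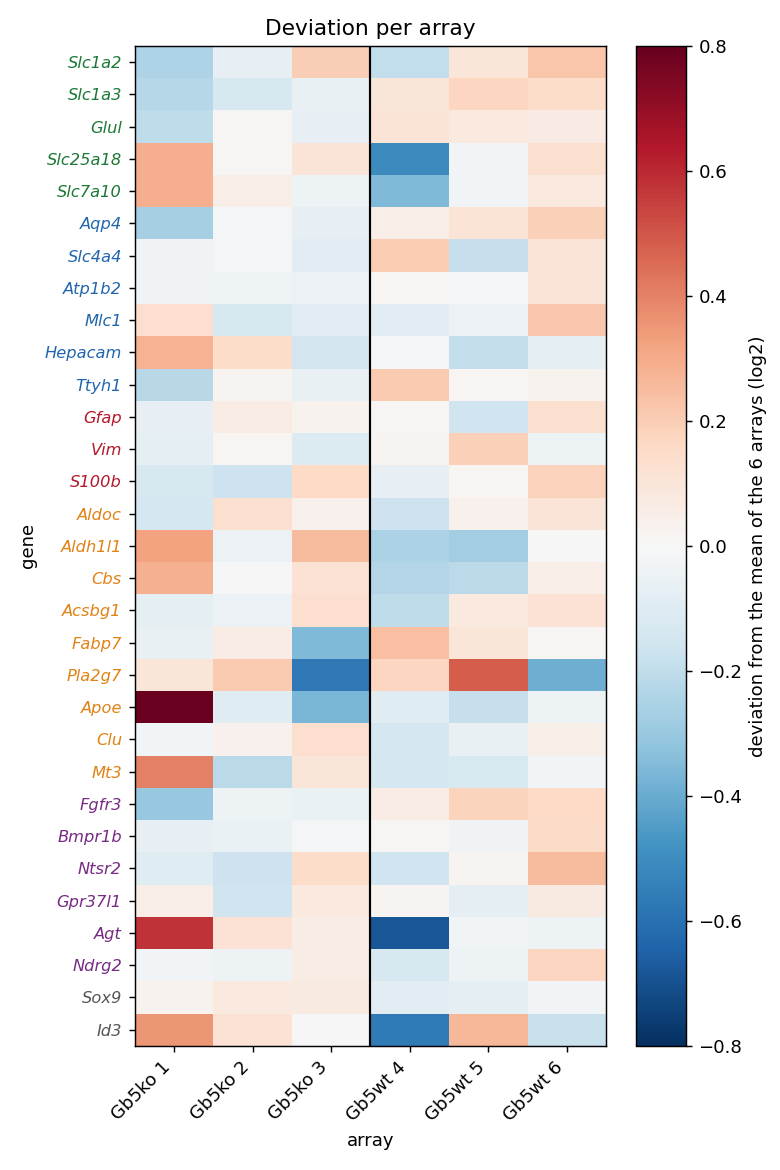
Deviation of each astrocyte gene (rows, label colour by function as for the differences) from its own mean over the 6 arrays, in log2 units, with Gb5ko arrays left of the line and Gb5wt arrays right of it. In Gb5ko replicate 1, Slc1a3, Aqp4 and Fgfr3 are low and Apoe, Agt and Mt3 are high.

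Fixed pairs of member genes were compared over the 6 arrays by exact permutation of the pairings, two-sided, with adjustment over 6 pairs. Slc1a2 and Slc1a3 had r = 0.51 (Spearman's rho 0.60), with exact permutation p values of 0.267 and 0.242 and adjusted values of 0.712 and 0.988. Without the 2 arrays farthest from the median of Slc1a2, r was 0.53. The other 5 pairs were Glul with Aldoc, Aqp4 with Slc4a4, Mlc1 with Hepacam, Gfap with Vim, and Apoe with Clu. Their r ran from -0.62 for Gfap with Vim to 0.27 for Glul with Aldoc, with exact p values from 0.182 to 0.712. Their rho ran from -0.37 to 0.26, with exact p values from 0.497 to 1, and 0 of the 6 pairs passed. All 5 turned in sign without the 2 arrays farthest from the median of the first gene, so each rested on those arrays. The r was then -0.81 for Glul with Aldoc, where it had been 0.27, and -0.06 for Aqp4 with Slc4a4, where it had been 0.21. It was -0.91 for Mlc1 with Hepacam, where it had been 0.21. It was 0.38 for Gfap with Vim, where it had been -0.62, and 0.48 for Apoe with Clu, where it had been -0.24. With 3 arrays in a genotype no correlation was tested within a group.

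A list of 50 other genes used as astrocyte markers, outside the 31, gave 0 calls in limma. Whether other cells of the tissue also express them was not tested. At an unadjusted p under 0.05, 9 of the 50 were lower in Gb5ko, 18.0% beside 5.68% of all genes, and 1 was higher (Cxcl14), 2.00% beside 9.89%. The cystine transporter Slc7a11 differed by -0.78 ± 0.152, the tissue factor gene F3 by -0.54 ± 0.11, Ppp1r3g, a glycogen-targeting phosphatase subunit, by -0.68 ± 0.141, and the connexin Gjb6 by -0.59 ± 0.125. Limma adjusted p values of these 4 ran from 0.173 to 0.187, and in each the groups did not overlap. The Slc7a11 probe set was dim, with a mean of 5.71. Without Gb5ko replicate 1 and Gb5wt replicate 4, 6 of the 50 were lower, beside 3.17% of all genes, and 0 were higher, beside 4.91%. With 1 array left out, between 6 and 10 of the 50 were lower, beside 3.6% to 5.9% of all genes. The list was written with an earlier result on Gjb6 and Gja1 known.

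Genes known to increase in reactive astrocytes gave 0 calls of 35 measured of 37 listed. Without adjustment, 2 of the 35 were higher at a p under 0.05 and 1 was lower, 5.71% and 2.86% beside 9.89% and 5.68% of all genes. The values were 0.35 ± 0.119 for the immunoproteasome subunit Psmb8, 0.35 ± 0.153 for Lgals3 and -0.23 ± 0.0928 for Serping1, and Socs3, an inhibitor of cytokine signalling, differed by 0.20. The mean level of the 35 genes lay between 6.22 and 6.25 in Gb5ko and between 6.24 and 6.28 in Gb5wt. Means of single genes ran from 3.32 for Cxcl10 to 11.60 for S100a10, and many were under 6. Psmb8 (5.69) and Lgals3 (5.29) were among the dim ones. RMA compresses differences near background, so changes in the dim genes could be missed.

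Markers of other cells in the tissue are given beside these values, and their part in them was not tested. The mean level of 11 oligodendrocyte markers ran from 9.46 to 10.07 in Gb5ko and from 9.85 to 10.28 in Gb5wt, with 11 negative differences and its lowest array in Gb5ko replicate 1. For 10 microglial markers it ran from 7.82 to 7.89 in Gb5ko and from 7.69 to 7.72 in Gb5wt. For 10 endothelial and mural markers it ran from 7.57 to 7.77 in Gb5ko and from 7.70 to 8.02 in Gb5wt. For 8 meningeal fibroblast markers it ran from 7.79 to 7.86 in Gb5ko and from 8.07 to 8.18 in Gb5wt. The mean of the microglial list thus lay higher, and that of the meningeal list lower, in every Gb5ko array. Single microglial markers did not all follow, with 8 positive and 2 negative differences, while all 8 meningeal differences were negative. Among all genes 59.9% of differences were positive and 40.1% negative. For 12 neuronal markers the mean level ran from 11.82 to 11.90 in Gb5ko and from 11.87 to 11.93 in Gb5wt. The 31 astrocyte genes themselves averaged 10.20 to 10.27 in Gb5ko and 10.13 to 10.28 in Gb5wt, with the Gb5ko arrays inside the Gb5wt range. The 50 other genes used as astrocyte markers averaged 8.90 to 9.02 in Gb5ko and 9.05 to 9.15 in Gb5wt. Their mean was thus lower in every Gb5ko array, with 33 negative and 17 positive differences.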

How the data were processed

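The authors deposited 1 table that holds, for each array, a normalized log2 value of every probe set. RMA and Partek are given in the submitters' processing notes, without versions. RMA corrects background, normalizes between arrays and summarizes probes on the log2 scale, and it compresses differences near background. No detection calls, depth or scanner files were used here, so precision rests on the number of arrays. The deposited log2 values lay between 1.91 and 14.4 (array medians 5.81 to 5.85) and were not normalized again. Of 45101 probe sets, 64 controls were left out and 45037 tested with no filter on dim signal. The platform annotation gave 34945 of these 1 gene, 932 several and 9160 none, and 0 symbols changed on matching to RefSeq.

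The comparison used limma 3.58.1 (R 4.3.3, lmFit and then eBayes), two-sided, with Benjamini-Hochberg adjustment over all 45037. The fit was tested on simulated data with independent noise in each probe set. It called 17 of 50 probe sets given a 1.5-fold change, 39 of 50 given a 2-fold change and 6 of 44837 left unchanged. The same simulated data held 50 probe sets with a 3-fold change and 50 with a 4-fold change, of which 47 and 48 were called. Adjusted p values depend on how many probe sets change, so these rates may not hold for the real arrays. Each gene was also read by its brightest probe set, the one with the highest mean over the 6 arrays. Members, lists and function groups were chosen with earlier results of these data known. Every member is named. Values per array are given for 16 genes listed with the design and the smallest p in each function group, and, as values or ranges, for probe sets that disagree. Of the other lists, the 4 genes of smallest p are named. C3 and Ggta1 of the reactive list had no 1-gene probe set and were not analysed here. Figures were drawn with matplotlib 3.10.9.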

Additional observations from a re-analysis of the deposited data

How the results depend on the processing

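No detection calls were used, so which dim probe sets lay above background is unknown. No paired analysis was made because no label pairs a Gb5ko array (replicates 1 to 3) with a Gb5wt array (replicates 4 to 6). Member calls stayed at 0, as did calls in both other astrocyte lists, in all 15 alternative fits. Over 993 values of member probe sets there, 0 calls were gained and 78 uncalled differences changed sign. Gnb5 stayed between -5.87 and -5.41, always called. Member genes higher at an unadjusted p under 0.05 numbered 0 to 4 with 1 array left out, against 2. The number was 0 without Gb5ko replicate 1, without Gb5wt replicate 4, without both, and with array weights. It was 4 without Gb5ko replicate 2, without Gb5wt replicate 6 and with Eif2s3y as a covariate, and 1 without Gb5ko replicate 2 and Gb5wt replicate 4. The share of all genes moved too, from 9.89% to between 5.7% and 10.3% with 1 array left out. It was 4.9% without Gb5ko replicate 1 and Gb5wt replicate 4, and shares in the other fits are not given here. Lower member genes numbered 0 to 3 with 1 array left out, beside 3.6% to 5.9% of all genes, against 2 and 5.68% with all arrays. They were 0 without Gb5wt replicate 5 or 6, 1 without Gb5ko replicate 1, 1 without either pair of arrays, 4 with trend and robust eBayes, 5 with the probe set of largest SD and 0 with the mean of all probe sets. The median member difference lay between -0.07 and 0.07. Over all probe sets, 12 calls became 23 with trend and robust eBayes and 27 with array weights, and 9 to 12 with 1 array left out. Of 6 gene pairs, 1 passed with the probe set of largest SD, against 0. The cause was not tested. Both fits without 2 arrays were added after the data were seen.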
